A study of Mus musculus with 4 samples.

Results

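The genes described here are Pik3ca, Pik3r1, Pdpk1, Akt1, Akt2, Gsk3a, Gsk3b and Foxo1, which form the core of PI3K, Akt and GSK3 signalling, the arm that dopamine D2 receptors reach through arrestin. They were chosen by symbol from the probe-to-gene table of the arrays, which gave 8 of 16383 genes, each with 1 probe. RNA of the dorsal raphe nucleus, a midbrain group of largely serotonergic neurons that innervate the forebrain, was hybridised to 4 single-colour DNA arrays. The groups were wild-type mice without stress (non-stressed WT), wild-type mice after forced swimming (stressed WT), D2R-KO mice after forced swimming and D2LR-KO mice after forced swimming, where D2R is the D2 receptor and D2LR its long form. All mice were males on a C57BL/6J background, 10 weeks old, and RNA from 5 mice was pooled for each array. Forced swimming lasted 6 min on each of 4 consecutive days, and dissection followed 12 h after the final swim. No knockout array without stress is among the samples, so genotype and stress cannot be told apart when a knockout is set against non-stressed WT.

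PI3K is a lipid kinase made of a catalytic and a regulatory subunit. It makes the membrane lipid to which the kinases Pdpk1 and Akt bind, and Pdpk1 then activates Akt by phosphorylation. Active Akt phosphorylates and inhibits both forms of GSK3 and keeps FoxO transcription factors out of the nucleus. D2 receptors act on this chain in the striatum through a complex of arrestin, Akt and the phosphatase PP2A that inactivates Akt and so releases GSK3. The arrays measured transcript levels, and they hold no reading of phosphorylation or of protein.

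Each group had 1 array, which leaves every value without a replicate error and every difference without a test. Levels are given as the deposited intensity, a linear brightness scaled by the submitters so that each array has a median of 25. Differences are given on a log2(signal + 50) scale after background correction and quantile normalization, which makes the differences of dim genes look smaller than they are. To count as higher or lower, a gene had to be at least 1.5-fold apart, a log2 difference of 0.58, and detected on at least 1 of the arrays compared. All 8 genes were detected on all 4 arrays, and no member was lost to the filter. Since fewer cells of a type and less RNA per cell both lower a signal from whole tissue, they cannot be told apart here.

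The stressed WT array stood apart from the others. Its log2 signals correlated with those of the other arrays at r = 0.958 to 0.966 across genes, against 0.990 to 0.994 among the other 3. Repeated positive control spots, 24 of each of a pair of kinds, gave SDs of a log2 difference of 0.107 to 0.241 over all comparisons, an error that says nothing of mice, pools or labelling. Genes with a second probe gave a further reading of precision. In stressed WT against non-stressed WT, 38 such genes passed 1.5-fold by their brighter probe. The second probe, which is always the dimmer and so shows smaller folds on this scale, differed in the same direction in 20 of the 38, and it passed 1.5-fold that way in 1. For D2R-KO against stressed WT the same counts were 45, 24 and 2, and for D2LR-KO against stressed WT they were 41, 21 and 0. In D2R-KO against non-stressed WT, 4 genes passed by the brighter probe and the second probe had the same direction in 3. In D2LR-KO this was 4 of 4. The second probe passed 1.5-fold that way in 1 for D2R-KO and in 0 for D2LR-KO. The median gap between the log2 differences of a gene's probes was 0.28 to 0.30 in comparisons with stressed WT and 0.11 to 0.12 without it. The 8 genes have 1 probe each, so none of their differences has such a second reading.

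Marker genes of other cells also differed between the arrays, and their part in the results below was not tested. The summed intensity of 14 serotonergic neuron genes, all detected on every array, was 5554.5 in WT without stress, 5046.2 in WT after stress, 8335.9 for D2R-KO and 7889.2 for D2LR-KO. Tph2, which makes serotonin in neurons, stood at 31.4, 10.7, 264.6 and 151.5 in that order, so the defining marker of the nucleus was near the array median or below it on both WT arrays. Choroid plexus and ependymal genes (9 measured) summed to 13238.4, 5880.1, 134.5 and 304.7, and cortical and hippocampal genes (11 measured) to 6691.4, 7514.8, 2364.8 and 2448.4. Both sums separated the WT arrays from the knockout arrays, the first mainly through 1 gene, Ttr. Ttr alone had intensities of 12884, 5720.2, 20.3 and 193.1. Against stressed WT, 1 of the 9 choroid plexus genes was at least 1.5-fold lower in D2R-KO and 2 in D2LR-KO. None was higher. Over all genes 8.64% and 8.2% were lower. Against non-stressed WT, 7 of the 9 were at least 1.5-fold lower in D2R-KO and 7 in D2LR-KO, with none higher. Of the 11 cortical and hippocampal genes, 7 and 6 were lower in these comparisons and none was higher. Over all genes 1.48% and 1.41% were lower there. Of the 14 serotonergic neuron genes, 4 and 3 were higher and none was lower, beside 0.577% and 0.745% of all genes higher. Endothelial and pericyte genes (12) summed to 3360.4, 1571.6, 3525.5 and 5311.9, and astrocyte genes (12) to 7574.4, 3836.2, 8339.0 and 7655.9, the lowest on the stressed WT array in each case. In stressed against non-stressed WT, where 8.11% of all genes were at least 1.5-fold lower and 7.28% higher, 5 of 12 endothelial and pericyte genes and 4 of 12 astrocyte genes were lower by that much (1 astrocyte gene was higher), as were 6 of 11 meningeal and 6 of 9 choroid plexus genes. Meningeal and fibroblast genes (11) summed to 1497.2, 769.0, 1011 and 2806.4, the highest in D2LR-KO. Of the 11, 9 were at least 1.5-fold higher in D2LR-KO than in D2R-KO and 8 higher than in stressed WT. None was lower. Over all genes 0.666% and 8.72% were higher. Of the 12 endothelial and pericyte genes, 3 and 8 were higher in these comparisons and none was lower. Oligodendrocyte genes (13) summed to 19757.2 to 27897.3, microglial genes (11) to 1574.6 to 2548.9 and pituitary genes (7, with Tshb detected on no array) to 89.2 to 585.8. Drd2, the gene targeted in both knockouts, had intensities of 26.8, 43.8, 20.9 and 48.3, and where its probe lies relative to the deleted sequence is not known here, so it does not check the labels.

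The promoters of 4 of the genes are printed because Pik3ca, Pik3r1 and Gsk3b were the members past 1.5-fold between stressed and non-stressed WT, and because Gsk3a, the closest relative of Gsk3b, was not. Each line holds the 250 bases before a RefSeq transcript start in GRCm38.p6, from 5′ to 3′ on the gene's strand. They lie at chr3:32396815-32397064 on the plus strand for Pik3ca, chr13:101768218-101768467 on the minus strand for Pik3r1, chr16:38088751-38089000 on the plus strand for Gsk3b and chr7:25237852-25238101 on the minus strand for Gsk3a. Capitals mark GGGCGG, the core of the GC box bound by Sp factors, and CCAAT, the box bound by NF-Y, on either strand (CCGCCC and ATTGG in reverse).
Pik3ca: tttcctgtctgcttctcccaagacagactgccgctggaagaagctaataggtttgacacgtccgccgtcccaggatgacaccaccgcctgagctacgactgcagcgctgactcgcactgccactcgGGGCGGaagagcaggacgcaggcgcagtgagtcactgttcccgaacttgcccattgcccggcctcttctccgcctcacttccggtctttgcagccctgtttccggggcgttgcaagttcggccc
Pik3r1: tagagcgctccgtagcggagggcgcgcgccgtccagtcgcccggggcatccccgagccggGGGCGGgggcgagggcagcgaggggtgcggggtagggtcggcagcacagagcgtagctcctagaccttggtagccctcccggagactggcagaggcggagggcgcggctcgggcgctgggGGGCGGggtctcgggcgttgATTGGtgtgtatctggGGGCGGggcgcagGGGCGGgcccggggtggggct
Gsk3b: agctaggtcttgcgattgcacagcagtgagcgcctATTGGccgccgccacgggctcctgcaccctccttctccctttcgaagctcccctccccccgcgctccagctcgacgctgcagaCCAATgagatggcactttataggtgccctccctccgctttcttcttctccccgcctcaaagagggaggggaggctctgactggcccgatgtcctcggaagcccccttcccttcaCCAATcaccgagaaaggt
Gsk3a: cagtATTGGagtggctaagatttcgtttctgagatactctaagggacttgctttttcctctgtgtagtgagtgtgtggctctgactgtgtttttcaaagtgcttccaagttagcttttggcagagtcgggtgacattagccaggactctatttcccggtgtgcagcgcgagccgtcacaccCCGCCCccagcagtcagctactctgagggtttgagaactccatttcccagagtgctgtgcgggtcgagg

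Neither motif was in the windows of all 3 genes that were lower together on the stressed WT array. The Pik3r1 window holds GGGCGG 4 times and CCAAT 1 time at 76.4% GC, the Pik3ca window holds GGGCGG 1 time and no CCAAT at 61.6% GC, and the Gsk3b window holds CCAAT 3 times and no GGGCGG at 62.0% GC. The Gsk3a window holds each motif 1 time at 52.0% GC, near the median of 52.4% over all windows. Pik3r1 has a second start in RefSeq whose window holds neither motif, and which start gave the measured transcript is not known here. All 8 genes matched the RefSeq table, with 14 starts of 32851. GGGCGG was in 7 of the 14 windows against 32.7% of all windows, and CCAAT was in 5 against 33.8%. GTAAACA, the forkhead motif that FoxO factors bind, was in 1 window, at the first of 2 starts of Akt1, against 3.17% of all windows. TGACGTCA, the cyclic AMP response element, was in 0 of the 14 against 1.55%. A match is a description of the sequence and does not show that a factor binds.

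Both PI3K subunits among the 8 genes were lower on the stressed WT array than on any other. Pik3ca, which encodes the catalytic subunit p110α, had deposited intensities of 82.4 in WT without stress, 36.3 in WT after stress, 86.5 for D2R-KO and 87.3 for D2LR-KO. The stressed WT array alone was low, and the other 3 lay close together. Pik3r1, which encodes the regulatory subunit p85α that holds the catalytic subunit stable and inactive until a receptor is engaged, read 56.2, 14.0, 41.4 and 39.9 in that order. Stressed WT was again lowest, the knockouts lay together, and non-stressed WT was highest. On the log2 scale stressed WT lay below non-stressed WT by −0.73 for Pik3ca (1.66-fold) and by −1.0 for Pik3r1 (2.0-fold), and the deposited intensities differed 2.27-fold and 4.01-fold. Differences at least as low were found in 5.31% of all genes for Pik3ca and in 2.15% for Pik3r1. The Pik3r1 spot on stressed WT was dim, with a median of 61.0 against 52.7 around it and a detection limit of 40.3. Its folds there rest on a weak reading. Over all processing settings its log2 difference between these arrays ran from −1.52 to −0.67. Pik3r1 had the widest range of the 8 genes over the 4 arrays, 1.0 on the log2 scale, and 7.56% of all genes had a wider one.

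Pdpk1, the kinase that phosphorylates Akt in its activation loop, varied little. Its intensities were 220.6 in WT without stress, 188.0 in WT after stress, 270.0 for D2R-KO and 247.4 for D2LR-KO. The 4 values kept within a log2 range of 0.13 after normalization, and 81.1% of all genes had a wider range. Its reading on the non-stressed array was the least certain of the members, since the spot there had a median of 490.8 against a brightness of 469.0 around it. The pair was 337.3 and 117.0 in WT after stress, 523.5 and 333.2 for D2R-KO and 410.8 and 157.4 for D2LR-KO. With the background taken around each spot, its difference from non-stressed WT became 1.88 in WT after stress, 1.34 for D2R-KO and 1.88 for D2LR-KO, in place of 0.04, 0.12 and 0.13. With median scaling the first of these was −0.38.

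Neither Akt gene passed 1.5-fold in a comparison with the processing used here. Akt1, the widely expressed form, had intensities of 342.4 in WT without stress, 336.5 in WT after stress, 365.0 for D2R-KO and 332.5 for D2LR-KO, which are nearly level. Its log2 difference of stressed from non-stressed WT was 0.27, and this sign was not kept, since it was −0.22 with median scaling, −0.02 with the deposited values and 0.70 with the background around each spot. Akt2, the form best known for insulin signalling, had intensities of 79.6, 49.0, 81.4 and 71.0. Its stressed WT value was the lowest, with a log2 difference of −0.39 from non-stressed WT, and 14.1% of all genes were at least as low. With other processing Akt2 reached −0.59 there (median scaling), and Akt1 lay at −0.74 in D2LR-KO against stressed WT with the background around each spot, both past 1.5-fold. The gap between the log2 differences of Akt2 and Akt1 (Akt2 minus Akt1) was −0.66 in stressed against non-stressed WT, and 0.02 and −0.06 in D2R-KO and D2LR-KO against non-stressed WT.

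The paralogues Gsk3a and Gsk3b, whose products share most substrates, gave different readings. Gsk3b had intensities of 102.6 in WT without stress, 37.2 in WT after stress, 90.9 for D2R-KO and 63.2 for D2LR-KO. Stressed WT was lowest, and D2LR-KO lay between it and the remaining pair. Gsk3a had intensities of 21.3, 24.6, 16.8 and 20, which lie under the array median and differ by at most 0.21 on the log2 scale. Against non-stressed WT, the log2 difference of Gsk3b was −0.94 for WT after stress (1.92-fold lower), −0.20 for D2R-KO and −0.50 for D2LR-KO (1.42-fold lower). The share of all genes at least as low was 2.67%, 10.6% and 2.05% in that order. Gsk3a differed by 0.08, −0.13 and −0.03, so the gap between the paralogues was −1.02, −0.07 and −0.47. With the background around each spot Gsk3b in stressed WT differed by −0.42, which is under 1.5-fold, and in D2LR-KO by −0.14. Gsk3a then differed by 0.07 and −0.002, so both gaps were smaller. Gsk3a is also dim, and this scale makes the differences of dim genes look smaller.

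Foxo1, a transcription factor that Akt keeps inactive, had the largest difference of the members in both knockouts from non-stressed WT with the processing used here. Pdpk1 differed by more (1.34 and 1.88) when the background was taken around each spot. Its intensities were 78.2 in WT without stress, 48.2 in WT after stress, 43.9 for D2R-KO and 41.9 for D2LR-KO. The non-stressed array alone was high, and the 3 stressed arrays lay close together. The log2 difference from non-stressed WT was −0.39 for WT after stress (1.31-fold lower), −0.57 for D2R-KO (1.49-fold lower) and −0.58 for D2LR-KO (1.49-fold lower), so none passed 1.5-fold. A difference at least as low was found in 14.3% of all genes in stressed WT, in 1.56% in D2R-KO and in 1.43% in D2LR-KO. All 3 comparisons use the same non-stressed array, and 1 high reading there would move them together. When the arrays were normalized without stressed WT, the differences in the knockouts were −0.60 and −0.61 and passed 1.5-fold. With the background around each spot they were −0.36 and −0.30.

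**Figure D1:**
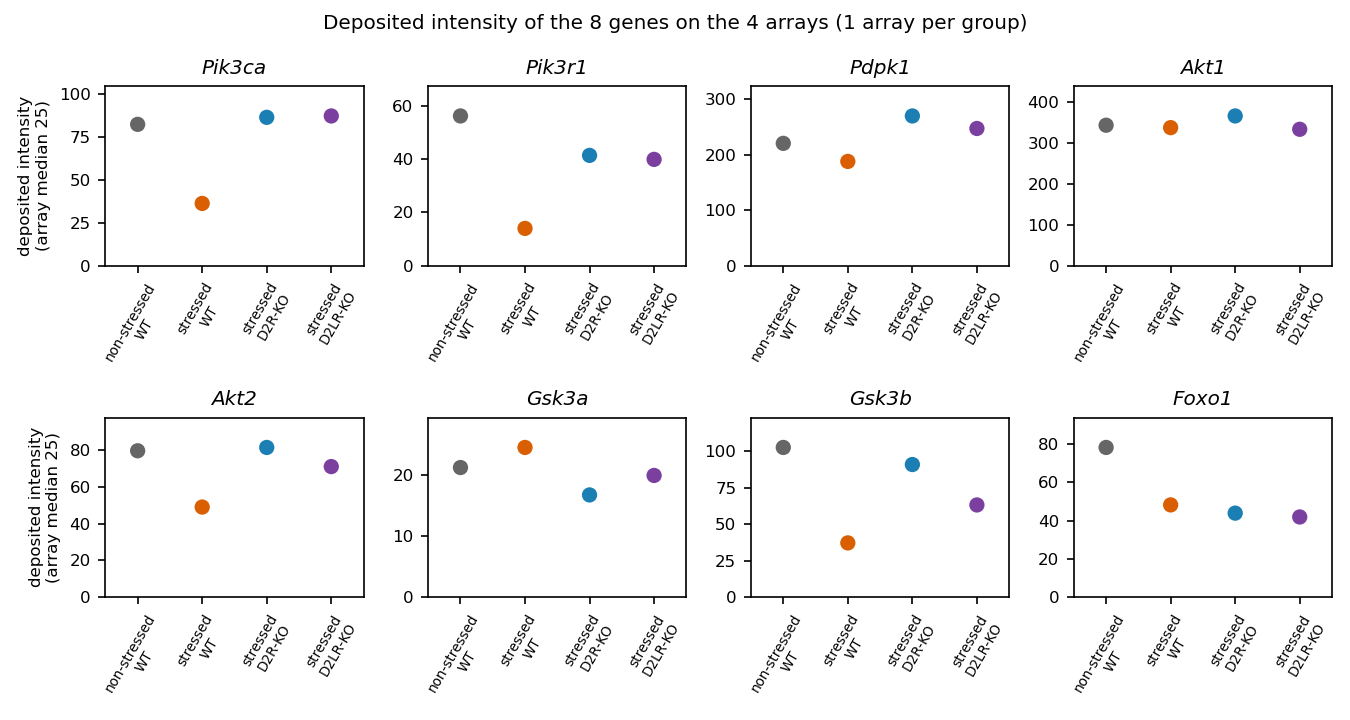
Deposited intensity (linear scale, array median 25) of each of the 8 genes on the 4 arrays, 1 point per array and with no error bars because each group has 1 array. The vertical axis starts at 0 and differs between genes. Pik3ca, Pik3r1, Akt2 and Gsk3b are lowest on the stressed WT array, and Foxo1 is highest on the non-stressed WT array.

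In stressed WT against non-stressed WT, 5 of the 8 genes lay below 0 and 3 above. Akt1 and Pdpk1 were among those above, and their signs were not kept over all processing settings. Of the 8, 0 were at least 1.5-fold higher and 3 were lower, namely Pik3r1, Gsk3b and Pik3ca, against 7.28% and 8.11% of the 15643 genes compared and 15.4% in either direction. The median log2 difference of the 8 was −0.39, beside 0.00 over all genes compared. The share of higher among all genes past 1.5-fold was 47.3%, and it was 14.0% with median scaling and 26.3% with the deposited values. With median scaling Akt2 and Foxo1 were also past 1.5-fold lower, which makes 5 of 8, beside 2586 genes lower and 421 higher in all. With the background around each spot 2 were higher (Akt1 and Pdpk1) and 2 lower (Pik3r1 and Pik3ca), and with an offset of 100 only Gsk3b and Pik3r1 were lower.

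In the knockouts against non-stressed WT, 0 of the 8 genes passed 1.5-fold in either direction. Over all genes 2.06% passed in D2R-KO (0.577% higher and 1.48% lower) and 2.15% in D2LR-KO (0.745% higher and 1.41% lower). The median of the 8 was −0.10 in D2R-KO and −0.09 in D2LR-KO, beside 0.01 and 0.00 over all genes. With about 2% of all genes past 1.5-fold, 0 of 8 is near the background. In D2R-KO, 7 of the 8 lay below 0, the exception being Pdpk1, and in D2LR-KO 6 lay below 0, the exceptions being Pdpk1 and Pik3ca. Several lay close to 0, the nearest being Pik3ca at −0.02 in D2R-KO and Gsk3a at −0.03 in D2LR-KO. Differences at least as low as these were found in 40.4% and 35.6% of all genes. The signs of Akt1, Akt2, Gsk3a and Pik3ca in D2R-KO were not kept over all processing settings. Neither were those of Pdpk1 and Pik3ca in D2LR-KO.

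Against stressed WT, the 3 genes past 1.5-fold lower on that array than in non-stressed WT lay above 0 in both knockouts. Foxo1, which was also lower on that array, lay at −0.18 in D2R-KO and −0.19 in D2LR-KO. With the background around each spot these were 0.19 and 0.25. Of the 8 genes, 3 were at least 1.5-fold higher in D2R-KO, where 9.31% of all genes were, and 0 were lower, where 8.64% were, with 18% in either direction. They were Gsk3b with a log2 difference of 0.74, Pik3ca with 0.71 and Pik3r1 with 0.71. In D2LR-KO 2 were higher, Pik3ca with 0.80 and Pik3r1 with 0.71, beside 8.72% of all genes, and 0 were lower, beside 8.2% (16.9% in either direction). Gsk3b in D2LR-KO differed by 0.44 (1.35-fold). With the background around each spot only Pik3r1 passed 1.5-fold in D2R-KO. With an offset of 100 none passed in D2R-KO and only Pik3ca in D2LR-KO. These comparisons share the stressed WT array with each other and with the comparison of stressed and non-stressed WT, so a low reading on it enters all of them.

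Between the knockouts, 0 of the 8 genes passed 1.5-fold, as 1% of all genes did (0.666% higher and 0.333% lower in D2LR-KO). Pik3r1, Pdpk1, Akt1 and Foxo1 differed by −0.00, 0.00, 0.00 and −0.01 on the log2 scale. For Pdpk1 and Akt1 this was not kept, since they differed by −0.23 and −0.24 with median scaling and by 0.53 and −0.34 when the background was taken around each spot. The largest difference was that of Gsk3b, which was 0.30 lower in D2LR-KO than in D2R-KO (a log2 difference of −0.30), with 3.56% of all genes at least as low. It was −0.085 when the background was taken around each spot.

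**Figure D2:**
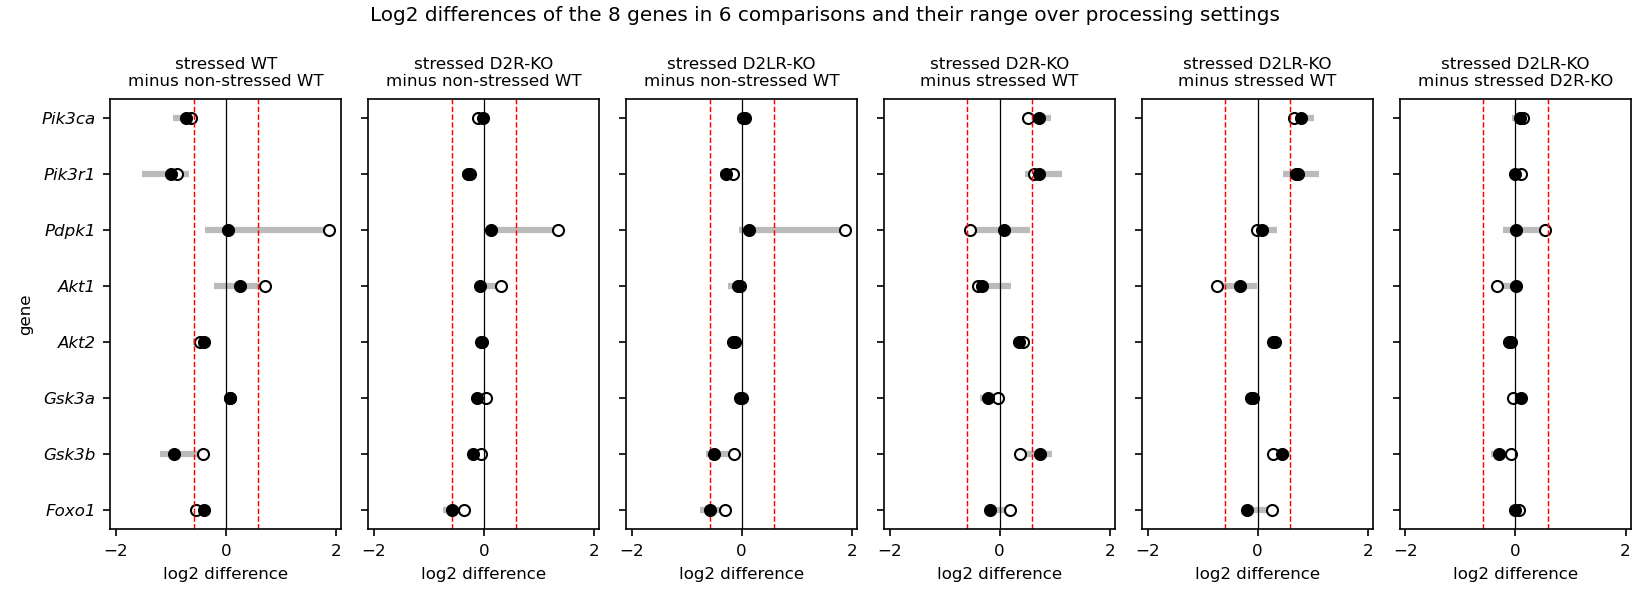
Log2 difference of each of the 8 genes (rows) in the 6 comparisons (panels). Filled points are the values reported, open points the values with the background taken around each spot, grey bars the range over all processing settings, and red dashed lines 1.5-fold. Pik3ca, Pik3r1 and Gsk3b lie past the line on the left in stressed WT minus non-stressed WT, and Pdpk1 has the widest range over settings.

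**Figure D3:**
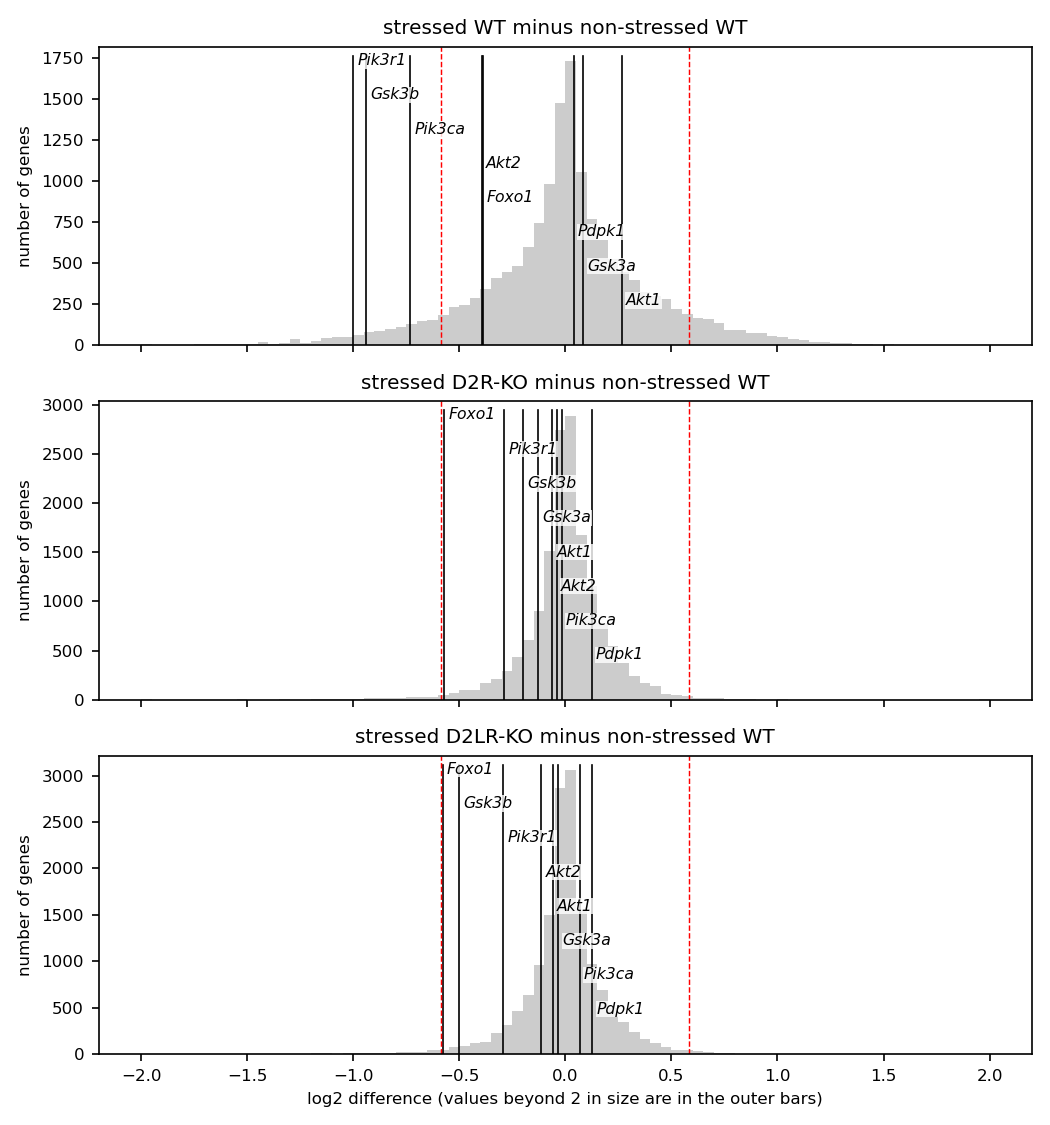
Number of genes (vertical axis) by log2 difference (horizontal axis) in the 3 comparisons with non-stressed WT, with a black line for each of the 8 genes and red dashed lines at 1.5-fold. The distribution is wider in stressed WT, where 15.4% of genes lie past 1.5-fold, than in D2R-KO with 2.06% and D2LR-KO with 2.15%.

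The genes whose 4 log2 signals ran most like those of Pik3r1, measured as the root mean square distance after centring each gene on its mean, were sought among 14704 genes detected on all arrays. They were Trim23 with a distance of 0.017, Mcm3ap with 0.019, Slc38a2 with 0.034, Wwtr1 with 0.035 and Dyrk3 with 0.035. Trim23 had intensities of 79.6 in WT without stress, 25.3 in WT after stress, 64.7 for D2R-KO and 58.6 for D2LR-KO. Likeness over 4 arrays of which 1 stands apart is a description of these arrays. Among the 8 genes, Pik3r1 lay nearest to Gsk3b (0.117) and Pik3ca (0.135), and the closest pair was Akt1 and Gsk3a (0.080).

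A further 88 genes of the pathway were listed by role, of which 82 had a probe, and 81 were compared in each comparison. In stressed WT against non-stressed WT, 6 of the 81 were at least 1.5-fold higher and 14 lower, beside 7.28% and 8.11% of all genes. Their median log2 difference was −0.01, beside −0.39 for the 8 genes. In D2R-KO 0 were higher and 3 lower, and in D2LR-KO 1 was higher and 2 lower, where 2.06% and 2.15% of all genes passed in either direction, with medians of −0.02 and −0.04. Against stressed WT, 11 were higher and 11 lower in D2R-KO and 10 higher and 11 lower in D2LR-KO, beside 18% and 16.9% of all genes in either direction. Between the knockouts 2 were higher and 1 lower in D2LR-KO, beside 1% of all genes. For each role, comparison and direction, up to 3 genes with the largest differences past 1.5-fold and detection on both arrays were taken, 70 differences in all. Of these, 51 were still past it in the same direction with median scaling and 39 when the background was taken around each spot. The counts by role that follow include the 8 genes where they belong to a role. For stressed against non-stressed WT, each stands beside 7.28% of all genes higher and 8.11% lower. For D2R-KO and D2LR-KO against non-stressed WT, each stands beside 2.06% and 2.15% in either direction.

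Of 12 PI3K subunits compared, 1 was higher and 2 were lower in stressed WT against non-stressed WT, beside 7.28% and 8.11% of all genes. The 2 were Pik3ca and Pik3r1, and the 1 was Pik3r4, the regulatory subunit of the class of PI3K that serves vesicle traffic, with 44.8 in non-stressed WT, 97.4 in stressed WT and a log2 difference of 0.92 (0.35 with the background around each spot). Pik3cb, which encodes the catalytic subunit p110β, ran the other way from Pik3ca with the processing used here. It was at 0.31 in stressed against non-stressed WT, but at 0.008 with median scaling and 0.72 with the background around each spot. In D2R-KO and D2LR-KO against stressed WT it was at −0.62 and −0.70 (−0.35 and −0.54 with median scaling). In neither knockout did a PI3K subunit pass 1.5-fold against non-stressed WT. Of 6 phosphatases that act on phosphoinositides or on Akt, Inppl1 was higher (89.6 and 210.7, a log2 difference of 1.27) and Phlpp1, which dephosphorylates Akt, was lower (150.3 and 63.6, −0.82) in stressed WT. Both lay on the other side in the knockouts against stressed WT, Inppl1 at −1.12 and −0.97 and Phlpp1 at 1.09 and 0.79. Phlpp1 in D2LR-KO was at 0.577 with the background around each spot, just under 1.5-fold.

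Among 10 Akt and SGK kinases and the kinases that activate them, Sgk1 and Sgk3 were lower in stressed WT. Sgk1, a glucocorticoid-induced kinase that shares targets with Akt, had intensities of 691.4 in WT without stress, 226.2 in WT after stress, 429.7 for D2R-KO and 173.2 for D2LR-KO. The non-stressed array was highest, with log2 differences of −1.25, −0.83 and −1.87 from it. These signs were not kept with the background around each spot, where they were 0.86, 0.87 and 0.75. D2LR-KO lay below D2R-KO by −1.04, or −0.12 with that background. Sgk3 had 51.1 in non-stressed and 11.2 in stressed WT, a log2 difference of −1.01, and in D2R-KO and D2LR-KO it was 0.85 and 0.97 above stressed WT. With the background around each spot none of the 3 passed 1.5-fold (−0.17, 0.31 and 0.19). Mtor, the kinase of the complexes that act above and below Akt, had intensities of 332.8, 320.7, 325.8 and 314.0. Its log2 differences from non-stressed WT were 0.24 (−0.24 with median scaling), −0.17 and −0.11. They became 0.90, 0.93 and 0.26 when the background was taken around each spot.

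Of 15 genes of the arrestin and PP2A arm, 1 was higher and 3 lower in stressed WT, beside 7.28% and 8.11% of all genes. None passed in either knockout against non-stressed WT, where 2.06% and 2.15% of all genes did. Arrb2, the arrestin that joins D2 receptors to Akt, had intensities of 69.4 in WT without stress, 62.5 in WT after stress, 79.6 for D2R-KO and 60.7 for D2LR-KO, with log2 differences from non-stressed WT of 0.01, 0.08 and −0.13. Arrb1, the other beta-arrestin, had 10.9 in stressed WT and 30.6 in D2R-KO (a log2 difference of 0.60, or 0.35 with the background around each spot). Ppp2ca, the catalytic subunit of PP2A, had 2011.7, 1048.0, 2110.3 and 2018.0, low on the stressed WT array only. Its log2 difference in stressed against non-stressed WT was −0.60 (−0.54 with the background around each spot). Ppp2r5e, a B56 regulatory subunit, had 476.5, 94.2, 593.0 and 484.1, and its log2 difference of −1.87 was the largest of the pathway genes in that comparison. It was 2.01 and 1.86 higher in the knockouts than in stressed WT. Other regulatory subunits lay the other way, Ppp2r2a at 1.14 in stressed against non-stressed WT and at −1.60 and −0.95 in the knockouts against stressed WT. In the same knockout comparisons Ppp2r2d was at −0.88 and −0.77 and the scaffold Ppp2r1a at −0.81 and −1.06. With median scaling Ppp2r2d was at −0.37 and −0.49 and Ppp2r1a at −0.14 and −0.67. The second scaffold, Ppp2r1b, was at −0.60 in stressed against non-stressed WT and at 0.63 and 0.71 in the knockouts against stressed WT (−0.29, 0.39 and 0.36 with the background around each spot). Ppp2r2a was also 0.66 higher in D2LR-KO than in D2R-KO. This was under 1.5-fold with the background around each spot (0.52) and with median scaling (0.50).

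Among 9 genes of GSK3 and beta-catenin, Gsk3b and Ctnnb1 were lower and Gys1 was higher in stressed WT against non-stressed WT. Ctnnb1, which encodes beta-catenin, the protein that GSK3 marks for destruction, had intensities of 1044.0 in WT without stress, 416.0 in WT after stress, 822.9 for D2R-KO and 767.6 for D2LR-KO. Non-stressed WT was highest and stressed WT lowest, with log2 differences of −0.96, −0.52 and −0.47 from non-stressed WT. Gys1, the glycogen synthase from which GSK3 takes its name, had 76.7 and 126.7 (a log2 difference of 0.75), and it was −0.73 and −0.78 in the knockouts against stressed WT. With median scaling the first of these differences was 0.42 and the second −0.40. Frat2, a GSK3-binding protein, had 41.4 in stressed WT and 16.1 in D2R-KO (−0.68, or −0.26 with the background around each spot). Neither knockout had a gene of this role past 1.5-fold against non-stressed WT.

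Of the 4 FoxO genes, Foxo6 was higher in stressed WT, with 36.7 in non-stressed and 67.1 in stressed WT (a log2 difference of 0.66, or 0.43 with the background around each spot) and 27.9 in each knockout. Foxo3 had intensities of 2.1, 3.5, 2.7 and 2.3, too dim to show a difference. Of 14 genes known as FoxO targets, 4 were lower and none was higher in stressed WT, with a median of −0.30, beside 8.11% and 7.28% of all genes and a median of 0.00. Sod2, the mitochondrial superoxide dismutase, had 1046.1 in WT without stress, 306.4 in WT after stress, 1321.4 for D2R-KO and 1102.8 for D2LR-KO, low on the stressed WT array only. Its log2 difference was −1.38, and those of Txnip, an inhibitor of thioredoxin, and Bcl6, a transcriptional repressor, were −1.12 and −0.75. That of Bcl6 was −0.56 with the background around each spot, which is under 1.5-fold. Txnip was also lower in D2R-KO than in non-stressed WT (105.9 and 173.1, −0.65), the only target past 1.5-fold in a knockout against non-stressed WT. Against stressed WT, Sod2 was 1.53 and 1.41 higher in D2R-KO and D2LR-KO, Gadd45a, a growth arrest gene, was 0.86 higher in D2R-KO (0.075 with the background around each spot) and Txnip was 0.90 higher in D2LR-KO. The targets whose windows hold GTAAACA were Bcl2l11, Trim63 and Txnip, 3 of 17 starts, beside 3.17% of all windows. Trim63 was detected on no array, and Bcl2l11 was dim, with intensities of 2.3 to 2.7.

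In the mTORC1 arm, 1 of 11 genes was higher and 3 were lower in stressed WT, beside 7.28% and 8.11% of all genes. Ddit4, a stress-induced inhibitor of mTORC1, was low on every stressed array. Its intensities were 442.1 in WT without stress, 94.4 in WT after stress, 90 for D2R-KO and 68.8 for D2LR-KO, with log2 differences of −1.76, −2.04 and −2.25. With the background around each spot these were −1.55, −1.72 and −2.61. Rheb, the GTPase that activates mTORC1, was low on the stressed WT array (1814.5 and 798.7, −0.84), and its inhibitor Tsc2 was high there (144.6 and 204.0, 0.68). Neither call was kept throughout, since Rheb was at −0.099 with the background around each spot and Tsc2 at 0.26 with median scaling. In D2R-KO and D2LR-KO against stressed WT, Rheb was 0.83 and 0.68 higher and Tsc2 lay at −0.77 and −0.80 (−0.35 and −0.55 with median scaling). Deptor, an inhibitory mTOR partner, had 120.8 in non-stressed and 55.4 in stressed WT (−0.71, but 0.54 with the background around each spot). In D2LR-KO it had 204.9, which was 0.63 above non-stressed WT (0.46 with median scaling). It was 1.22 and 1.35 higher in the knockouts than in stressed WT, and Rptor, the scaffold of mTORC1, was 0.84 and 0.60 higher (0.26 and 0.15 with the background around each spot).

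Of 9 upstream receptors and adaptors, none passed 1.5-fold between any stressed group and non-stressed WT. Gab1, an adaptor that recruits PI3K, was 0.83 and 0.72 higher in D2R-KO and D2LR-KO than in stressed WT. Drd2 differed by −0.60 in D2R-KO from stressed WT (−0.33 with the background around each spot) and was 0.64 higher in D2LR-KO than in D2R-KO, which became −0.090 with the background around each spot.

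**Figure D4:**
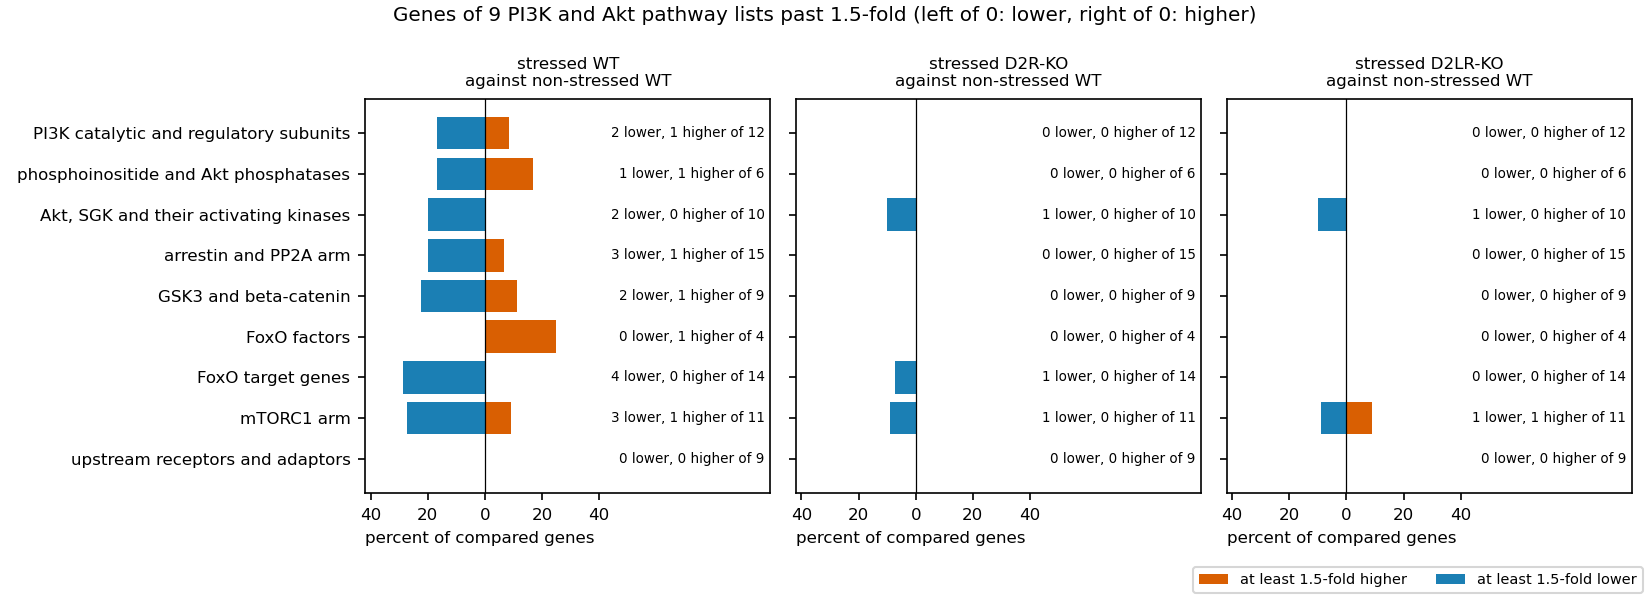
Share of the compared genes of 9 pathway lists (rows) that were at least 1.5-fold lower (blue, left of 0) or higher (orange, right of 0) in the 3 comparisons with non-stressed WT (panels), with the counts at the right. Lower and higher genes occur in most lists in stressed WT, and at most 1 gene of a list passes in each direction in either knockout.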

How the data were processed

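RNA of 4 groups, 1 array each, was compared. Per the labels' protocols, total RNA was extracted with an RNeasy kit, amplified as amino allyl aRNA with MessageAmp II, labelled with Cy5 and hybridised by Toray's protocol. Scans at 635 nm were made at 3 gains, per the file headers, and the median intensity of each spot and of its surround was written without background subtraction. The deposited value table also holds intensity: its numbers equal the spot median less a constant (36.7 to 38.8) over a factor (1.51 to 2.05) fixed for each array. The sources used here do not state the submitters' steps.

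From the spot medians, limma 3.58.1 in R 4.3.3 computed a normexp background correction with the blank spots as negative controls, an offset of 50, log2 and quantile normalization. A probe was detected above the mean plus 2 SD of the blanks (38.0 to 40.3), which 91.0% to 91.6% of 23464 probes passed. Genes came from the series' probe table with symbols updated through RefSeq, and the probe with the highest mean signal stood for a gene. Later steps used Python 3.11.15, numpy 2.4.6 and pandas 2.3.3. The steps were also run on simulated arrays with known folds, all made from the non-stressed array. None of the simulated arrays stood apart as stressed WT does, so that run says nothing of the precision of comparisons with it. Single arrays per group allow no test.

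The text names all 8 genes, up to 3 genes per direction, list and comparison past 1.5-fold with the largest differences, further genes set by name, and the 5 genes nearest to the member with the widest range. The members and lists were chosen with earlier results of these data known. In all, 10 alternatives were run. The 9 probes with a spot marked unusable were left out, as were 6842 probes without a symbol here.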

Additional observations from a re-analysis of the deposited data

How the results depend on the processing

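No paired analysis was possible because each group has 1 array. Leaving out a replicate could not be done for the same reason. A higher detection limit, no filter on dim probes and the mean over probes could not move the 8 genes, which have 1 probe each and were detected throughout. Over the other 7 alternatives, 67 of 312 values of the 8 genes moved by more than the spread of repeated control spots, 22 of 48 of them with the background around each spot. Of 639 values of named pathway genes over all alternatives, 204 moved and 5 changed sign. The 639 include the higher detection limit, no filter on dim probes and the mean over probes, with which all 70 stayed the same. The share that moved is thus higher over the remaining alternatives. With the background around each spot 48 of 70 moved and the same 5 changed sign. The count of the 8 genes past 1.5-fold in stressed against non-stressed WT was 5 with median scaling, and 4 with the background around each spot (2 higher and 2 lower). In D2R-KO against non-stressed WT it was 1 with the background around each spot (Pdpk1), and 1 with median scaling, cyclic loess, an offset of 16 or normalization without stressed WT (Foxo1). In D2LR-KO it was 1 with the background around each spot, cyclic loess, the deposited values or normalization without stressed WT, and 2 with median scaling or an offset of 16. Against stressed WT it was 1 with the background around each spot and 0 with an offset of 100 for D2R-KO, and 1 with an offset of 100 for D2LR-KO. The median of the 8 was −0.59 with median scaling in stressed against non-stressed WT, and 0.55 with median scaling and 0.50 with the deposited values in D2R-KO against stressed WT. Of the pathway genes, 11 passed with the background around each spot and 6 with an offset of 16 in D2R-KO against non-stressed WT, 14, 7 and 7 with that background, median scaling and an offset of 16 in D2LR-KO, and 1 with an offset of 100 between the knockouts. Their median in D2R-KO against stressed WT was 0.11 with median scaling. The background around each spot turned the sign of Deptor in stressed WT (0.54), of Sgk1 in all 3 comparisons with non-stressed WT (0.86 for WT after stress, 0.87 for D2R-KO, 0.75 for D2LR-KO) and of Drd2 between the knockouts (−0.090), and the cause was not tested. Of all genes past 1.5-fold, the share higher moved by over 10 points from 51.9% to 83.1% (median scaling) and 77.1% (deposited values) in D2R-KO and from 51.5% to 73.4% and 72.4% in D2LR-KO against stressed WT. Against non-stressed WT it moved from 28.04% to 55.6% (deposited values) and 58.3% (background around each spot) in D2R-KO and from 34.6% to 10.7% (median scaling) and 59.2% (background around each spot) in D2LR-KO. Between the knockouts it moved from 66.7% to 17.1% (median scaling), 38.7% (deposited values) and 54.8% (background around each spot). Normalization without stressed WT was added after seeing the data. Gsk3a and Foxo3 were dim, as was Pik3r1 on the stressed WT array, which limits what their differences can show.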
